A study of Mus musculus with 24 samples.

Results

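The motile cilia genes described here are every row of the deposited hippocampal expression table whose symbol starts with Cfap, Dnah, Dnaic, Dnali, Rsph or Tekt followed by a digit, together with Foxj1. The rule uses names alone and gave 65 genes of 21793, and it was chosen with earlier results of these data known. RNA came from the hippocampus of female mice of 2 strains, each on 3 diets that began at 3 months of age and lasted 6 months. The strain labelled 3xTg (3xTg-AD) is a model of Alzheimer's disease with mutant human APP and MAPT under a Thy1 promoter element, active in neurons. The strain labelled WT is B6129SF2/J, a cross of C57BL/6 and 129 mice, and strain background and transgenes cannot be told apart here.

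The control diet (C) held 70% carbohydrate, 20% long-chain triglyceride and 10% protein, with the basis of the percentages not given in the labels. In the medium-chain triglyceride diet (M, MCT), 10% long-chain and 10% medium-chain triglyceride took the place of that 20%. The ketogenic diet (K) held 90% long-chain triglyceride, 10% protein and no carbohydrate, at 6.7 kcal/g against 4.1 kcal/g for the others. There were 4 WT libraries on each diet, and 3, 5 and 4 3xTg libraries on diets C, K and M. Libraries are named by strain, diet and replicate, as in WT_C_1.

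The library labelled 3xTg_C_3 and the library labelled 3xTg_K_1 had Thy1 normalised counts of 9189 and 8112, near the WT libraries. The library labelled WT_M_2 had 23048, near the 3xTg libraries. Apart from these 3, Thy1 lay between 6952 and 8137 in WT and between 20385 and 29277 in 3xTg. Depth was 10.1 to 25.8 M reads, except 2.65 M in 3xTg_K_2. WT_C_1 and WT_K_1 stood apart in choroid plexus markers, with summed normalised counts of 13724 and 5106 against 480 to 900 in the others.

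Motile cilia are beating projections built on an axoneme, a ring of doublet microtubules around a central pair. Outer and inner dynein arms are motors on the doublets, radial spokes pass signals from the central apparatus to those motors, and tektins and other lumen proteins stiffen the doublets. In the brain, motile cilia are carried mainly by ependymal cells of the ventricle wall and by choroid plexus cells. FOXJ1 is the transcription factor that switches on the genes for motile cilia, together with factors of the RFX family, which bind a DNA element called the X-box.

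Promoter windows are shown for 4 members because results below turn on them. Dnah6 followed Foxj1 most closely, Cfap206 followed it and holds a full X-box, and Dnaic1 and Cfap46 were the members called between genotypes. Each window is RefSeq sequence of GRCm38.p6, from 250 bases before to 50 bases after an annotated start, on the gene's strand. Dnah6 is at chr6:73221582-73221881 (minus strand), Cfap206 at chr4:34730157-34730456 (minus), Dnaic1 at chr4:41569544-41569843 (plus) and Cfap46 at chr7:139683766-139684065 (minus). Capitals mark a short X-box in Dnah6 and Dnaic1, a full X-box in Cfap206 and an X-box half-site in Cfap46. In Cfap206 and Cfap46 the marked stretch fits the spelling given below on the opposite strand.
Dnah6: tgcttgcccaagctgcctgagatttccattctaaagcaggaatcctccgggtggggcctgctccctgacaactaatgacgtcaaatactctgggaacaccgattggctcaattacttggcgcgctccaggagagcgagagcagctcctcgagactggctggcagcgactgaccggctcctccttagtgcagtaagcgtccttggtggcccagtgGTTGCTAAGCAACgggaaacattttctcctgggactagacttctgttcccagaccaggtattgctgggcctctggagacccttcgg
Cfap206: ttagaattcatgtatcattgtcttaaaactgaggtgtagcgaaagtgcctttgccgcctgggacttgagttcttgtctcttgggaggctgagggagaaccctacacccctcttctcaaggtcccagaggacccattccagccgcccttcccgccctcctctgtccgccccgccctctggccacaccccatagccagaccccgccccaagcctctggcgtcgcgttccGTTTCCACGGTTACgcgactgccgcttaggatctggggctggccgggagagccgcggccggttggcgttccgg
Dnaic1: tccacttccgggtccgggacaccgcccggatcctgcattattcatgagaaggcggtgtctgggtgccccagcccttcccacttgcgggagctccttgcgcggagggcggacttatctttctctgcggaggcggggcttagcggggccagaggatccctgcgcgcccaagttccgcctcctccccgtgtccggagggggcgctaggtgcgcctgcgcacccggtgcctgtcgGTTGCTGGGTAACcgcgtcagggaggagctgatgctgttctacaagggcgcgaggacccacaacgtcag
Cfap46: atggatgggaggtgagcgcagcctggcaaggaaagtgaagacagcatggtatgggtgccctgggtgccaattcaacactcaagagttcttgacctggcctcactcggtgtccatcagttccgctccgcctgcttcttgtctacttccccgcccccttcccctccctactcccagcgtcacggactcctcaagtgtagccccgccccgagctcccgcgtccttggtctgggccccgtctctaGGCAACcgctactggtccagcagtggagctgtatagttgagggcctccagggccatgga

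Windows were found for 53 members, and Foxj1 was among the 12 without one. Both strands were searched. The full X-box, spelled as GTNNCC, any 2 bases and GGNAAC, was in the windows of 3 of the 53 members (5.66%) and of 1.491% of 27025 genes. The 3 were Cfap206, Cfap298 and Tekt4, whose Pearson r with Foxj1 over the libraries was 0.64, 0.31 and 0.095. A shorter form, spelled as GTTGC, any 3 bases and GNAAC, was in 10 members (18.87%) and 0.7882% of genes. That form was spelled after the Dnah6 and Dnaic1 windows had been read, and 3 of its 10 genes are the near copies Dnah7a, Dnah7b and Dnah7c, so the difference in share supports nothing. The half-site GTTGCC, which can lie inside either form, was in 19 members (35.85%) and 14.14% of genes. The forkhead motif TGTTTAC was in 4 members (7.547%) and 4.052% of genes. A match is a description of letters, not of binding.

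Most members were measured at low levels. The floor for testing, at least 3 libraries with 10 or more normalised counts, was passed by 54 of the 65. The other 11 had means from 0.04 (Cfap97d1) to 6.37 (Cfap77) and included the tektins Tekt2 and Tekt3, the spoke genes Rsph6a and Rsph14 and the dynein heavy chain Dnah17. In the table, 5 genes that are broadly expressed or not confined to axonemes (Cfap36, Cfap97, Cfap20, Cfap298 and Cfap300) made up 51.36% of the members' summed level. Their means ran from 278 for Cfap300 to 1665 for Cfap36. The summed level is therefore mostly not that of the motile axoneme, so differences below are given gene by gene or as means and medians of log2 values. Correlations of roles and lists use the mean over their kept genes of log2 values centred on each gene's mean. Each kept gene therefore has the same weight, whatever its level.

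Among the 63 members with an exon length, the 5 broadly expressed genes ranked highest per kilobase of exon. They ran from 117 normalised counts per kb for Cfap20 to 607 for Cfap36. Cfap410 and Cfap47 had no exon length and were not ranked. Among axonemal members the highest was the spoke head gene Rsph9, at 74.4 per kb. Foxj1 stood at 29.8 per kb. The dynein heavy chains, which are very long genes, lay between 1.10 per kb for Dnah7c and 24.1 per kb for Dnah9 among those kept. Sharing of reads could not be resolved for Dnah7a, Dnah7b and Dnah7c or for Rsph3a and Rsph3b, which are near copies of each other. Exons of 28 members overlap those of another gene, most in Cfap298 (44.2% of its exon length), and the strand setting of the counting is not given in the sources used here.

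Foxj1 (chr11:116330704-116335399, GRCm38) was present in every library, at a mean normalised count of 78.1. WT mice on the control diet had 90.0, 79.8, 102.8 and 107.5. WT mice on the ketogenic diet had 97.5, 69.6, 58.2 and 42.5. WT_K_1 lay among the control values, and the other 3 lay below all of them. WT mice on the MCT diet had 64.9, 49.7, 94.7 and 111.6, where 49.7 is the library labelled WT_M_2. The 3xTg control group had 43.0, 72.7 and 71.6, all below the 4 WT control libraries. The 3xTg ketogenic group had 99.6, 91.8, 84.8, 60.0 and 70.2, and the 3xTg MCT group had 52.2, 91.4, 87.2 and 80.9. Both of these spanned most of the range of the whole study.

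Ordered by mean, Foxj1 was highest in WT control (95.05 ± 12.6, SD, n = 4), then 3xTg ketogenic (81.3 ± 16.1, n = 5), WT MCT (80.2 ± 28.1, n = 4), 3xTg MCT (78.0 ± 17.7, n = 4), WT ketogenic (66.9 ± 23.2, n = 4) and 3xTg control (62.4 ± 16.8, n = 3). No neighbours in that order differed by more than the larger of their SDs. None of the 10 comparisons called Foxj1 at an adjusted p under 0.05 (limma). Its smallest unadjusted p was 0.015, for the difference between strains in the ketogenic response, with an adjusted p of 0.724. In bulk tissue, fewer ciliated cells and less RNA per cell cannot be told apart.

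**Figure D1:**
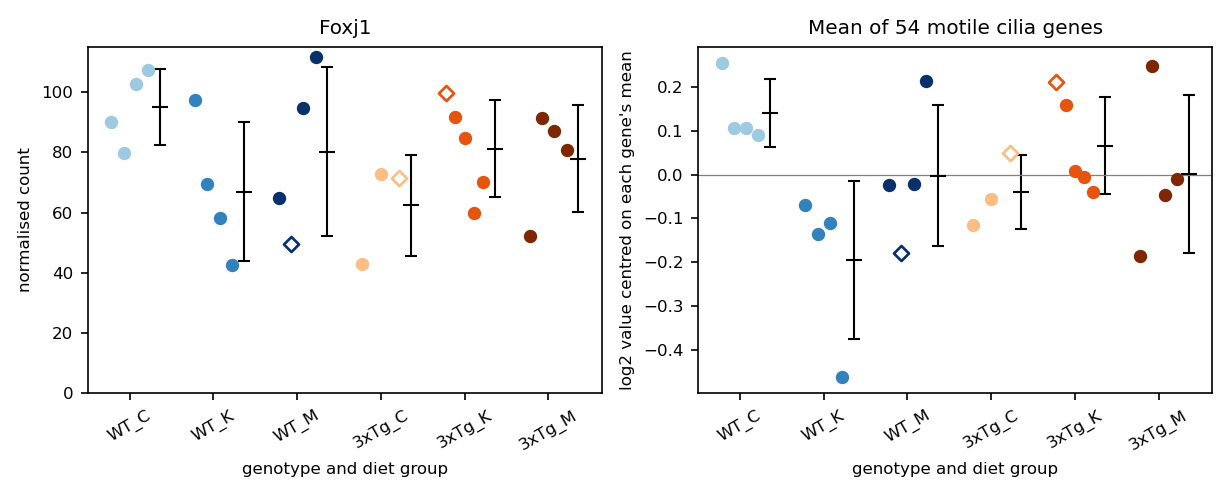
Foxj1 normalised count (left) and the mean over 54 members of log2(normalised count + 1), each centred on its own mean (right), by strain and diet group. Points are libraries, open diamonds are the 3 libraries whose Thy1 goes against the label, and bars give mean and SD; WT_K_4 is lowest in both panels (42.5 and -0.46).

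The members' mean centred log2 value varied between libraries of the same group. It was lowest in WT_K_4, at -0.46, and highest in WT_C_1 and 3xTg_M_2, at 0.26 and 0.25. The SD between libraries within groups, pooled over the 6 groups, was 0.141. The 4 WT control libraries (0.26, 0.11, 0.11 and 0.09) lay above the 4 WT ketogenic libraries (-0.07, -0.14, -0.11 and -0.46) without overlap. The 3xTg control libraries lay at -0.11, -0.05 and 0.05, and the 3xTg ketogenic libraries at 0.21, 0.16, 0.01, -0.01 and -0.04.

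Members followed Foxj1 unevenly across the 24 libraries. Of 53 other kept members, 10 had a Pearson r over 0.5 with Foxj1, 32 lay between 0 and 0.5 and 11 lay under 0, with a median of 0.27. Of all kept genes, 1.12% exceeded 0.5. These are descriptions over libraries that share groups, depth and tissue taken. With group means removed the count over 0.5 was again 10, and it was 9 without WT_K_4 and 3xTg_C_1, the libraries farthest from the Foxj1 median.

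The highest r was that of Dnah6, an inner-arm dynein heavy chain, at 0.80 (rho 0.78, and 0.70 without those 2 libraries). Next came Cfap52, a doublet lumen protein, at 0.69, and Dnah3, another inner-arm heavy chain, at 0.66. The spoke head gene Rsph4a stood at 0.60 and Rsph1 at 0.58. The lowest values belonged to Cfap20 (-0.54), Cfap97 (-0.35) and Cfap69 (-0.26), the first 2 of which are broadly expressed. Dnah9, an outer-arm heavy chain with a mean of 384, had an r of -0.11. In 25 of the 53 members the spread between libraries was under 1.5 times that of counting alone, so a low r in those genes says little.

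**Figure D2:**
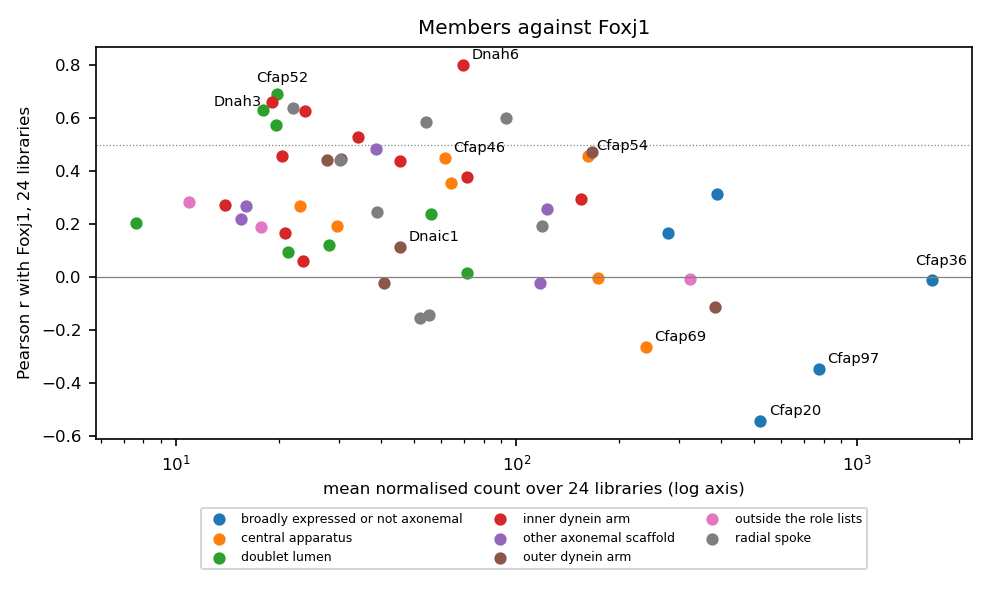
Pearson r with Foxj1 over 24 libraries against mean normalised count (log axis) for 53 kept members, coloured by role in the axoneme. The dotted line is r = 0.5; 10 members lie above it, led by Dnah6 at 0.80, and the broadly expressed Cfap20 is lowest at -0.54.

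By role, the mean centred log2 value of the 11 inner-arm genes had an r of 0.92 with the members' mean. The 8 kept doublet lumen genes had 0.82, the 8 kept radial spoke genes 0.80 and the 5 kept scaffold genes 0.77. The 7 kept central apparatus genes had 0.59, the 6 kept outer-arm genes 0.58 and the 5 broadly expressed genes 0.23. Each of these genes is part of that mean, so the values rank the roles and do no more.

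Genes outside the naming rule were compared through lists of known function, by the mean centred log2 value of each list's kept genes. The 17 genes of the nexin link, the molecular ruler and the central pair, led in level by the ruler gene Ccdc39 (mean 478), had an r of 0.88 with the members' mean. The 13 kept ependymal markers, led by Tppp3 (mean 408), had 0.72, and 13 dynein assembly and docking genes, led by Dnal1 (mean 2729), had 0.62. The 9 kept regulators of multiciliation had 0.31. By level that list is dominated by Rfx3 (mean 2276), an RFX factor expressed beyond ciliated cells. In the r of 0.31, however, each kept gene has the same weight. Gmnc, a regulator at the start of the programme, had a mean of 85.2 and Mcidas only 1.93. The 24 genes of intraflagellar transport and the primary cilium, which neurons and glia also carry, had -0.01.

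Of hippocampal neuron markers, Prox1 of the dentate gyrus (mean 2064) and Neurod6 (mean 4315) were present in every library. All 14 ependymal markers listed were detected, with means of 408 for Tppp3 and 78.0 for Rarres2 and from 6.26 to 53.8 for the others. Lists for other cells followed the members less: choroid plexus epithelium 0.40, striatum 0.05, hippocampal neurons -0.01, and astrocytes and meningeal fibroblasts -0.03 each.

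**Figure D3:**
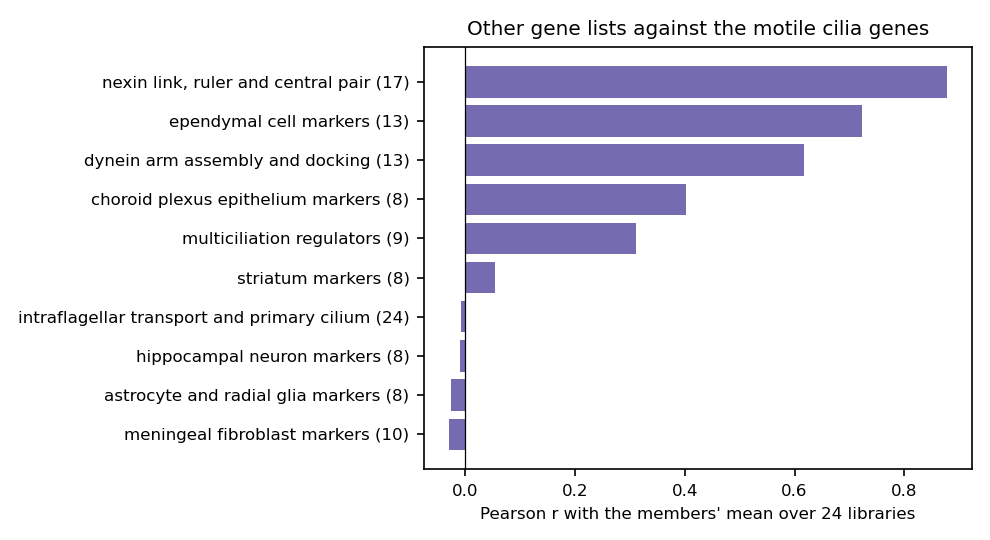
Pearson r over 24 libraries between the mean centred log2 value of each list's kept genes and that of the members. The number of kept genes is in brackets. Nexin link, ependymal and dynein assembly lists reach 0.88, 0.72 and 0.62, and the primary cilium list is at -0.01.

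Among 12336 single genes outside the members with a mean of at least 32, the closest to the members' mean was the unnamed gene model Gm19935, at an r of 0.87. Next were Ccdc40 (0.86), a ruler partner of Ccdc39, and Lrrc23 (0.81), a radial spoke protein. Ak7, Iqcg and Hydin, also of the axoneme, stood at 0.80, 0.70 and 0.67, and Iqub at 0.69. The other 3 of the closest 10 were Lbp (0.78), which binds bacterial lipopolysaccharide, Pbxip1 (0.73) and the complement gene C3 (0.72).

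By the members' mean, WT mice on the ketogenic diet were the lowest of the 6 groups, though Foxj1 and Cfap46 were lower elsewhere. Of 54 kept members, 44 were lower than on the control diet, with a median log2 difference of -0.27 against -0.002 over all kept genes. No member was called by limma, edgeR or DESeq2, and 0 of 14162 genes (0%) were called at all by limma. At an unadjusted p under 0.05 there were 14 members, all lower, where 2.51% of all genes were lower at that level. The inner dynein arms led: 10 of 11 were lower, with a median of -0.67. Those 11 include the near copies Dnah7a, Dnah7b and Dnah7c. All 8 doublet lumen genes were lower (median -0.45), as were 6 of 8 spoke genes (median -0.36). All 5 kept scaffold genes were lower too (median -0.26). So were 6 of 7 central apparatus genes (median -0.28) and 4 of 6 outer-arm genes (median -0.19). The 5 broadly expressed genes had a median of 0.01. With genes of a mean of at least 50 alone, 26 members remained, with a median of -0.04 and 4 members at an unadjusted p under 0.05.

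Dnah3 had 26.9, 19.6, 27.1 and 29.6 normalised counts in WT control and 11.0, 18.4, 6.8 and 4.6 in WT ketogenic libraries, with no overlap. Its log2 difference was -1.40 ± 0.35 (SE, adjusted p = 0.983). Dnah10, a further inner-arm heavy chain, had 36.2, 29.4, 28.0 and 28.7 on control and 8.2, 23.2, 23.3 and 9.2 on ketogenic diet, again with no overlap. Its difference was -1.03 ± 0.30 (adjusted p = 0.983). Dnah6 had 118.8, 79.8, 71.0 and 85.1 on control and 64.5, 54.1, 54.4 and 35.6 on ketogenic diet. These groups did not overlap either, and the difference was -0.76 ± 0.25 (adjusted p = 0.983). Members without overlap numbered 4, all lower, against 1.44% of all genes that were lower without overlap.

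Other lists differed in this comparison, and none had a called gene. Of the nexin link list, 14 of 17 genes were lower (median -0.44), and of the ependymal list 12 of 13 (median -0.15). The dynein assembly list had 8 of 13 lower (median -0.01), the multiciliation regulators 6 of 9 (median -0.08) and the primary cilium list 11 of 24 (median 0.02). All 8 kept choroid plexus markers were lower too, with none called. The summed choroid level spanned 571 to 13724 in the WT control libraries and 564 to 5106 in the WT ketogenic libraries, where WT_C_1 and WT_K_1 held the high values. Kcne2 was at 0 in 8 of the 24 libraries and Slc4a5 in 5. Without those 2 libraries the members' median was -0.27 and 10 members had an unadjusted p under 0.05.

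In 3xTg mice, 36 of 54 members were higher on the ketogenic than on the control diet, with a median of 0.11. Again 0 of 14162 genes (0%) and no member was called by limma, and edgeR and DESeq2 called no member. At an unadjusted p under 0.05 there were 3 members, against 6.69% of all genes. Cfap44, a protein that tethers inner dynein arms, had 104.7, 116.3 and 92.5 in 3xTg control and 142.3, 135.0, 155.9, 145.9 and 161.4 in 3xTg ketogenic libraries. These did not overlap, and the difference was 0.50 ± 0.16 (adjusted p = 0.724). Tekt1 differed by 0.56 ± 0.25 and Cfap97 by -0.15 ± 0.07, both at an adjusted p of 0.724. Tekt1 was at 0.37 without the 3 libraries whose Thy1 goes against the label, and Cfap97 at -0.10 without 3xTg_C_1. The count of 3 members was 6 without 3xTg_K_3 and 5 without 3xTg_K_4. Without 3xTg_C_1, 3xTg_C_2 or the library labelled 3xTg_K_1 the median was 0.07, 0.07 and 0.06.

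The difference between strains in the ketogenic response was tested as an interaction, in which 3xTg minus WT is positive. It was positive for 44 of 54 members, with a median of 0.38 against -0.001 over all kept genes. No gene was called (0% of 14162 by limma), and edgeR and DESeq2 called no member. At an unadjusted p under 0.05 there were 14 members, all positive, where 3.34% of all genes were positive at that level. The smallest p was that of Cfap44 (0.96 ± 0.22, adjusted p = 0.724), then Dnah6 (1.249 ± 0.36) and Dnah7b (1.07 ± 0.32) at the same adjusted p. This contrast shares its libraries with both diet comparisons, so its sign is not a separate observation. Without WT_K_4 the median was 0.25 and 10 members had an unadjusted p under 0.05. Among the 26 members with a mean of at least 50, the median was 0.14 and the count 5.

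**Figure D4:**
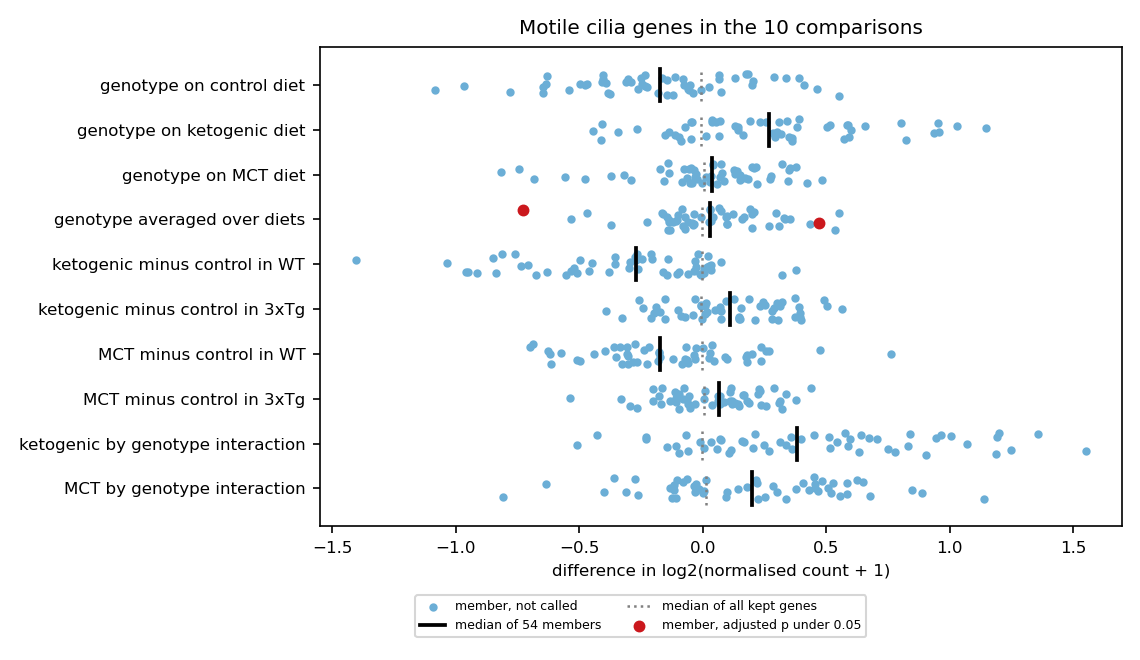
Differences in log2(normalised count + 1) for the 54 kept members in the 10 comparisons, with the median of the members (black) and of all kept genes (dotted). Red marks the members called at an adjusted p under 0.05, which were Cfap46 and Dnaic1 in the genotype comparison averaged over diets; the lowest median is -0.27, for the ketogenic diet in WT, and the highest 0.38, for the interaction.

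On the MCT diet the members' medians lay closer to 0. In WT mice 37 of 54 were lower than on the control diet, with a median of -0.17, and 1 of 14162 genes was called (0.00706%), not a member. At an unadjusted p under 0.05 there were 4 members, all lower, against 2.68% of all genes that were lower. They included Dnah7a (-0.63 ± 0.22), Dnah10 (-0.70 ± 0.30) and the outer-arm heavy chain Dnah5 (-0.27 ± 0.12), all at an adjusted p of 0.989. The count of 4 was 1 without WT_C_1, 2 without WT_M_2 and 9 without WT_M_4, and 7 by edgeR and by DESeq2. Without WT_C_1, WT_M_3 or the library labelled WT_M_2 the median was -0.10, -0.09 and -0.08, and among the 26 members with a mean of at least 50 it was -0.05. All 8 choroid plexus markers (median -1.40) and all 10 meningeal markers (median -0.57) were lower too, with none called. Their summed levels were 571 to 13724 and 1479 to 2164 in WT control libraries, against 546 to 769 and 771 to 1834 in WT MCT libraries. The part of meningeal cells in the result was not tested.

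In 3xTg mice 32 of 54 members were higher on the MCT diet, with a median of 0.07, and 0 of 14162 genes (0%) was called. No member reached an unadjusted p under 0.05, where 2.67% of all genes did. The smallest p belonged to Rsph4a (0.34 ± 0.21), Cfap36 (-0.11 ± 0.07) and Dnah10 (0.44 ± 0.32), at an adjusted p of 0.999. Rsph4a was at 0.18 without 3xTg_M_2, and Dnah10 at 0.23 without 3xTg_C_1. Without 3xTg_M_2 the median was -0.001, and without 3xTg_C_1 it was 0.02. The interaction of the MCT diet with strain had a median of 0.20, with 2 members at an unadjusted p under 0.05 against 2.78% of genes and none called (0%). Those were Dnah10 (1.14 ± 0.44) and Cfap161 (0.89 ± 0.41), a lumen protein, at an adjusted p of 0.9998, and edgeR and DESeq2 called no member in any MCT comparison within a strain. The interaction's median was 0.06 without 3xTg_M_2, 0.07 without WT_M_2 and 0.11 without 3xTg_C_2, and its count of 2 members ranged from 0 without 3xTg_C_1 to 6 without WT_M_4. Among the 26 members with a mean of at least 50, the interaction's median was 0.003.

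Strain was compared on each diet. On the control diet 39 of 54 members were lower in 3xTg, with a median of -0.17. Of all genes 8 were called (0.0565%), none a member. There were 11 members at an unadjusted p under 0.05, 8 lower and 3 higher, against 7.24% of all genes lower and 7.23% higher. By edgeR and DESeq2 no member was called on any single diet. The smallest p was that of Cfap46 (-1.09 ± 0.31, adjusted p = 0.132). Dnah10 was lower by 0.97 ± 0.32 on the log2 scale (adjusted p = 0.185), with 11.0, 15.4 and 20.0 in 3xTg below every WT control value. Cfap97 differed by 0.18 ± 0.07 and Cfap36 by 0.17 ± 0.07, with adjusted p of 0.232 and 0.251. Without overlap there were 4 members higher and 5 lower, against 6.82% and 6% of all genes. The count of 11 was 4 without 3xTg_C_1 and 7 without WT_C_1, and the median among the 26 members with a mean of at least 50 was -0.09. In this comparison all 8 choroid plexus markers (median -0.99) and 9 of 10 meningeal markers (median -0.51) were lower in 3xTg, with none called. Their summed levels were 485 to 680 and 1469 to 1669 in the 3xTg control libraries. Without WT_C_1 and WT_K_1 the members' median was -0.14, and the part of meningeal cells was not tested. The WT control libraries also enter both diet comparisons in WT, so those results and this one share their values.

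On the ketogenic diet 40 of 54 members were higher in 3xTg, with a median of 0.27. Of all genes 22 were called (0.155%), none a member. All 16 members at an unadjusted p under 0.05 were higher, where 7.06% of all genes were. They were led by Cfap44 (0.57 ± 0.15, adjusted p = 0.0732), Rsph4a (0.66 ± 0.18, adjusted p = 0.0911) and Dnah3 (1.15 ± 0.33, adjusted p = 0.101). Rsph4a had 71.4, 92.8, 69.9 and 44.8 in WT and 145.6, 108.0, 91.6, 95.3 and 101.9 in 3xTg libraries, which overlap only through WT_K_2. Without WT_K_4 the median was 0.16 and 10 members had an unadjusted p under 0.05. Among the 26 members with a mean of at least 50, the median was 0.06 and the count 6. All 8 choroid plexus markers (median -0.53) and 9 of 10 meningeal markers (median -0.69) were lower in 3xTg here, with none called. The summed choroid level was 5106 in WT_K_1, 564 to 708 in the other WT ketogenic libraries and 480 to 900 in 3xTg ketogenic libraries. The part of choroid plexus and meningeal cells in the result was not tested. The WT ketogenic libraries also enter the diet comparison in WT, so the 2 results share their low values.

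On the MCT diet the median was 0.04, 30 of 54 members were higher, and 0 of 14162 genes (0%) was called. At an unadjusted p under 0.05 there were 4 members, against 7.12% of all genes. Cfap46 differed by -0.68 ± 0.29 (adjusted p = 0.632) and the outer-arm heavy chain Dnah8 by -0.74 ± 0.33 (adjusted p = 0.654). Without 3xTg_M_1, where Dnah8 had 11.7 against 34.4 to 54.7 in the other 3xTg MCT libraries, it was at -0.31 and the count of 4 members was 0. That count was 1 without WT_M_3 or WT_M_4 and 2 without 3xTg_M_4. Without the library labelled WT_M_2 the median was 0.003, and without WT_M_1 or 3xTg_M_2 it was -0.01 and -0.002. Among the 26 members with a mean of at least 50 it was -0.02.

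Without the 3 libraries whose Thy1 goes against the label, 21 remained. Cfap46 was then called between strains on the control diet, where 1.74% of all genes were called, at -1.44 (adjusted p = 0.00854). Cfap69 and Cfap44 were called on the ketogenic diet, where 3.62% were, with Cfap44 at 0.59 (adjusted p = 0.0429). None was called on the MCT diet, where 1.77% were. The medians became -0.18, 0.21 and 0.003 on the 3 diets. Diet comparisons called no member in the 21 libraries either, with medians of -0.27 and 0.08 for the ketogenic diet in WT and 3xTg, and -0.08 and 0.06 for the MCT diet.

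Averaged over diets, strain differences were called in 1147 of 14162 genes (8.1%) and in 2 of 54 members, a share of the members below that of all genes. The members' median was 0.03, with 28 higher and 26 lower, and 11 had an unadjusted p under 0.05 against 24.4% of all genes. The median was -0.04 among the 26 members with a mean of at least 50, -0.02 without 3xTg_M_2, -0.01 without WT_K_4 or WT_M_2 and 0.01 by edgeR and DESeq2. The members called were Cfap46, lower in 3xTg, and Dnaic1, higher in 3xTg.

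Cfap46 (chr7:139600951-139683817) encodes a protein of the central apparatus. WT control libraries had 106.7, 145.7, 57.0 and 68.1 normalised counts, WT ketogenic 112.6, 62.8, 57.3 and 68.9, and WT MCT 65.7, 34.2, 62.1 and 86.4. The 3xTg control libraries had 28.7, 35.4 and 67.7, the ketogenic 69.0, 48.6, 54.6, 48.2 and 53.8, and the MCT 28.8, 42.9, 37.3 and 38.1. The low WT value and the 2 high 3xTg values belong to the libraries labelled WT_M_2, 3xTg_C_3 and 3xTg_K_1. The means were 46.1 ± 13.5 in 3xTg and 77.3 ± 30.6 in WT (SD, n = 12 each), a log2 difference of -0.73 ± 0.17 (limma, adjusted p = 0.00988). Without those 3 libraries the 10 remaining 3xTg libraries lay between 28.7 and 54.6 and the 11 remaining WT libraries between 57.0 and 145.7. The difference was then -0.96 (adjusted p = 0.000128), and Cfap46 was the single member without overlap, where 0.607% of all genes were lower without overlap.

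Dnaic1 (chr4:41569775-41638158) encodes an intermediate chain of the outer dynein arm, and 15 bases of its exons overlap Enho on the opposite strand. WT control libraries had 40.8, 30.8, 43.0 and 43.0, WT ketogenic 37.1, 48.3, 31.1 and 20.7, and WT MCT 34.5, 51.9, 35.8 and 48.3. The 3xTg control libraries had 61.7, 51.8 and 60.1, the ketogenic 41.6, 54.0, 52.6, 47.1 and 54.8, and the MCT 52.2, 59.8, 48.4 and 44.7. The strains overlap, and the lowest 3xTg and highest WT values are again those of the libraries labelled 3xTg_K_1 and WT_M_2. The means were 52.4 ± 6.26 in 3xTg and 38.8 ± 8.91 in WT, a difference of 0.47 ± 0.12 (limma, adjusted p = 0.0135). Its r with Foxj1 was 0.11.

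**Figure D5:**
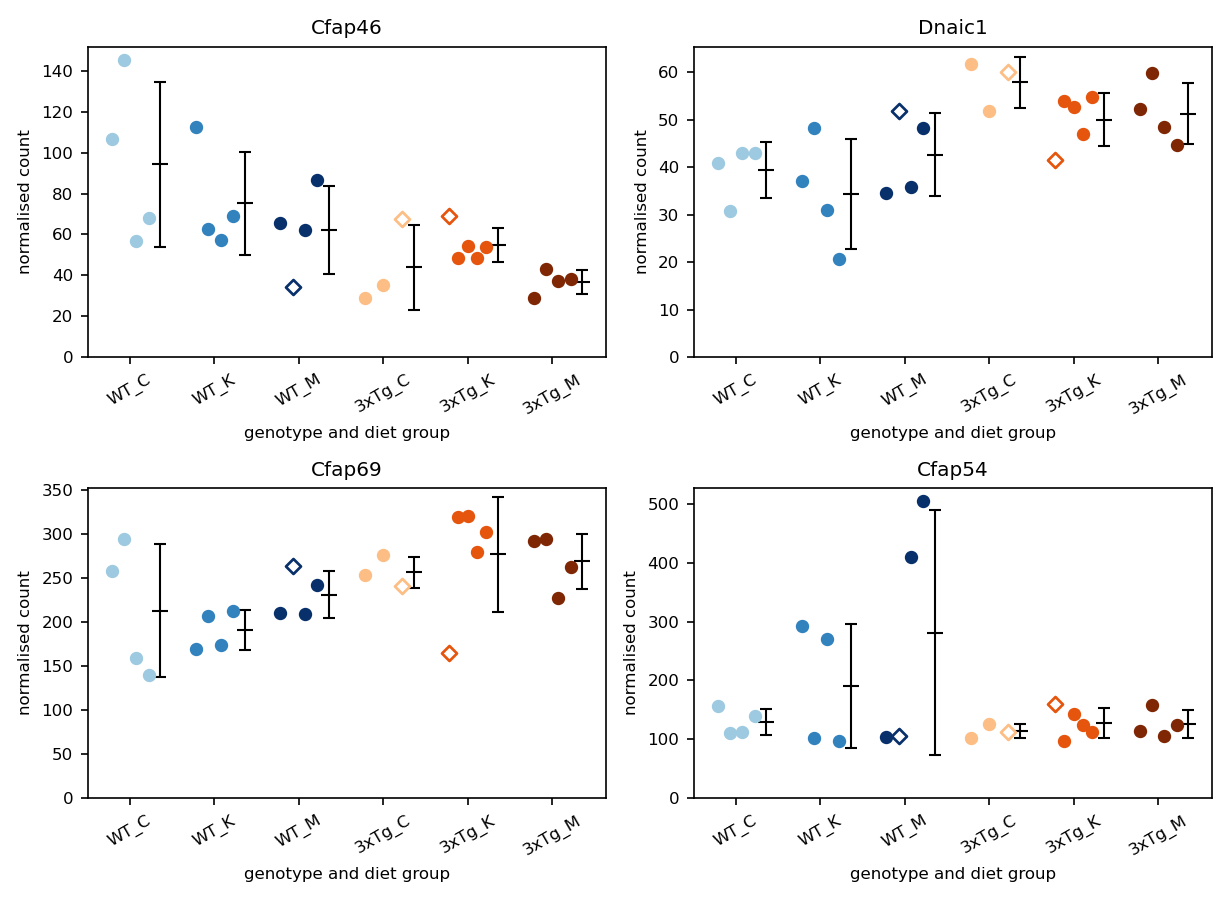
Normalised counts of Cfap46, Dnaic1, Cfap69 and Cfap54 by strain and diet group, with mean and SD. Open diamonds are the 3 libraries whose Thy1 goes against the label; for Cfap46 they read 67.7, 69.0 and 34.2, and Cfap54 has 4 libraries above 200.

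Cfap69, a central apparatus protein, differed by 0.35 ± 0.11 between strains (adjusted p = 0.0558), and Rsph3a by 0.43 ± 0.15 (adjusted p = 0.0654). The library labelled 3xTg_K_1 had a Cfap69 count of 164.2, against 278.8 to 319.7 in the other 3xTg ketogenic libraries. In the 21 libraries both were called, as were Cfap58, Cfap46 and Dnaic1, where 13.1% of all genes were called. Among related lists, the assembly gene Zmynd10 was lower in 3xTg by 0.64 ± 0.13 on the log2 scale (adjusted p = 0.00422) and the ependymal marker Tppp3 higher by 0.37 ± 0.09 (adjusted p = 0.0140), the single calls of their lists of 13. Of 24 primary cilium genes, Ift22, Ift27, Ift52 and Kif3a were higher and Ift122 lower, by 0.27 ± 0.05 on the log2 scale (adjusted p = 0.00201). No gene of the nexin link list of 17 or of the 9 multiciliation regulators was called.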

How the data were processed

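Poly(A) RNA was sequenced in 24 hippocampal libraries. Per the labels' protocols, the input was 500 ng of RNA (integrity number above 8), amplified for 11 PCR cycles with adapters that carry molecular identifiers. Trimmomatic, STAR and GRCm38 are named in the submitters' processing notes. Not given in the sources used here are the gene counter, annotation, strand setting, scaling tool and any use of the molecular identifiers. Normalised read counts, a signal unit, were what the authors deposited, in 1 table. Dividing each library by the worth of 1 read gave whole numbers within 0.01 reads for 100% of values, so whole reads were recovered for edgeR and DESeq2, and 0 value columns lacked a sample.

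Genes with 10 or more normalised counts in at least 3 libraries were kept (14162 of 21793). With limma 3.58.1 (R 4.3.3), log2(value + 1) was modelled as 6 group means with a mean-dependent prior variance, and two-sided p-values of every kept gene were adjusted together (Benjamini-Hochberg). A fold on this scale understates the change of low genes. Calls are at an adjusted p under 0.05. The fit was tested on simulated data. Alternatives were edgeR 4.0.16 and DESeq2 1.42.0 on whole reads, TMM factors, pseudocounts of 0.5 and 5, keeping every gene, requiring a mean of 50, a replicate block, the compared groups alone and leaving out libraries. The 2-library omission for choroid plexus markers was chosen after seeing the data.

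Members and lists were chosen with earlier results of these data known. Named genes are Foxj1, up to 4 members per role and 4 genes per list by level, up to 10 called members per comparison or else the 3 with the smallest p, and the 10 genes most like the members' mean. Others are named after their values were seen. Positions and exon lengths are from GENCODE M21 on GRCm38, which matched 63 members by symbol. The labels number libraries within groups but do not tie each to an animal, so p-values measure the spread between these libraries.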

Additional observations from a re-analysis of the deposited data

Results flagged for a closer look

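In groups of 4 or 5 libraries, the gap of the highest or lowest library to its nearest neighbour was set against the group's range, for 35 named members and the members' mean. Of 180 groups, 12 exceeded Dixon's 95% critical value, where chance gives about 9. The members' mean centred log2 value was flagged in WT_K_4 (-0.4632, others -0.14 to -0.07) and in WT_C_1 (0.2564, others 0.09 to 0.11). WT_C_1, the library highest in choroid plexus markers, was also flagged high for the inner-arm genes Dnah10 (36.19, others 28.0 to 29.4) and Dnah7a (33.41, others 25.1 to 25.2).

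Within WT control, WT_C_4 was high for Rsph9 (115.6, others 104.7 to 106.5) and Rsph1 (71.68, others 57.4 to 59.8) and low for Cfap20 (505.4, others 517.8 to 519.7), and WT_C_2 was low for Rsph4a (75.64, others 102.1 to 105.8). WT_K_1, the other library high in choroid plexus markers, was high for Rsph1 (71.39, others 39.6 to 44.8). In 3xTg MCT, 3xTg_M_4 was low for Tekt4 (15.81, others 28.6 to 30.6) and 3xTg_M_1 for Rsph3a (49.52, others 71.4 to 74.4). The library labelled 3xTg_K_1, whose Thy1 goes against the label, was low for Cfap69 (164.2, others 278.8 to 319.7).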

How the results depend on the processing

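Of 1483 alternative values for 69 results, 1424 kept their direction and side of the threshold or stayed within a set tolerance. For counts of members the tolerance was a fixed ratio. For medians it was the SD of 0.141 between libraries within groups. That is wider than several of the medians, so a median could change sign and still be among the 1424. Filtering at a mean of 50 left 26 members and moved the members' median to 0.06121 (strain on the ketogenic diet), -0.0439 (ketogenic diet in WT), 0.1383 (its interaction) and 0.002982 (MCT interaction). It also gave -0.04753 for the MCT diet in WT and -0.08562 for strain on the control diet, and turned the sign for strain on the MCT diet (-0.02452) and averaged over diets (-0.03632). It left 1 call between strains averaged over diets; by its construction it removes low members. That last count was 4 with DESeq2 and 5 without the 3 libraries whose Thy1 goes against the label, and 2 to 4 when each library was left out (4 without the library labelled 3xTg_K_1 or WT_M_2). Without the 3 libraries the count was 1 on the control diet and 2 on the ketogenic diet. Leaving out each library gave 0 to 1 on the control diet (1 without 3xTg_C_3) and 0 to 2 on the ketogenic diet (2 without 3xTg_K_1), and the cause was not tested. The Foxj1 difference between strains on the MCT diet, -0.004, ranged from -0.2082 to 0.1758 on leaving out each library, with 0.1749 without 3xTg_M_1, 0.09757 without WT_M_3 and 0.1758 without WT_M_4. Cfap46 and Dnaic1 stayed called averaged over diets wherever kept, at adjusted p up to 0.0392 and 0.0400.

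Replicate numbers did not pair the libraries: the correlation of deviations over 55 pairs with the same number averaged 0.006 (-0.26 to 0.25, 11 over 0.1), against -0.002 over 184 other pairs. With the replicate block 2 members were called averaged over diets and no call changed, while the members' median there was -0.003 in place of 0.03.

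In 3xTg_K_2, with 2.65 M reads, 1 read was worth 5.40 normalised counts, which limits members near the floor of 10.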

Other observations

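In 3 members, Cfap54, Cfap46 and Cfap69, the spread between libraries was at least 3 times that of counting alone (7.56, 3.29 and 3.15 times). They were singled out after their values were seen, and the values below carry no test.

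Cfap54 (chr10:92775619-93081618), a central apparatus gene, had 292 and 271 normalised counts in WT_K_1 and WT_K_3 and 410 and 506 in WT_M_3 and WT_M_4. The other 20 libraries lay between 96.4 and 160, with none between those ranges. All 4 high libraries are WT, on 2 diets. Among 14161 other kept genes, the lowest Pearson r with Cfap54 over 24 libraries was that of Snrpf (-0.83, rho -0.56), a splicing gene 501411 bp away. Snrpf lay between 80.4 and 101.6 in the 4 high libraries and between 112.3 and 159.6 in the others. The 2 highest were Lta4h (0.75, rho 0.45) and Cdk17 (0.74, rho 0.32), 371793 and 79257 bp away. All of these are among the 9 kept genes within 1 Mb of Cfap54, and r was not recomputed without the 4 high libraries.

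For Cfap69 (chr5:5579278-5664239), the lowest r of all kept genes was that of Cdk14 (-0.87, rho -0.84), 158966 bp away and 1 of 5 kept genes within 1 Mb. For Cfap46, none of 22 kept genes within 1 Mb was among the extremes, the nearest being Echs1, ranked 735 from the lowest (r -0.54).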
